A study of Mus musculus with 8 samples.

Results

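The replication-dependent histone genes are the genes that encode the linker histone H1 and the core histones H2A, H2B, H3 and H4 for packaging of newly made DNA. They were taken from the gene table by name, as every gene of the Hist1, Hist2, Hist3 and Hist4 series of these classes, without the testis variants Hist1h1t, Hist1h2aa and Hist1h2ba. This gave 64 of 29880 genes in the table, of which 5 encode H1, 18 H2A, 17 H2B, 12 H3 and 12 H4. Total RNA was sequenced from fractionated spermatogenic cells of C57BL/6 mice aged 3 to 6 months. The mice were either of genotype H3.3BWT/WT :Actin Cre WT, here WT, or H3.3BKO/KO :Actin Cre WT, here KO, which lack H3f3b, one of the genes of the replacement histone H3.3. Meiotic cells and post-meiotic cells, the latter mainly round spermatids with some elongated spermatids, were separated by sedimentation in a BSA gradient. There were 4 groups of 2 libraries, and cells of all groups had been suspended in medium with 10 mM sodium butyrate. The KO comes from a line with an epitope tag and loxP sites in H3f3b, and the label Actin Cre WT is the same in all groups. The labels name the tubules of 1 mouse as the source of RNA, while the study's methods speak of pooled fractions, and neither says whether libraries of a group or of the 2 stages came from separate mice, so p-values measure the spread between these libraries. The question is how far each histone class, and each gene in it, differed between WT and KO cells and between the 2 stages.

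Replication-dependent histone genes lie in clusters, have no introns and are transcribed mostly in S phase, when NPAT at the histone locus body drives them together. Their mRNA is not polyadenylated. It ends just after a conserved stem-loop, which is bound by SLBP and cut by the U7 snRNP, and it is degraded when DNA replication stops. H3.3, in contrast, is made from polyadenylated mRNA and enters chromatin at all times. In the testis the last DNA replication comes before meiotic prophase, and somatic-type histones are later replaced by testis variants, transition proteins and protamines.

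Gene counts came to 57853283 to 92836630 reads per library, and the 64 genes took 0.0478% to 0.249% of them. H3f3b itself had 36885 and 32641 reads in WT and 621 and 1107 in KO meiotic cells, and 14727 and 12130 against 407 and 442 in post-meiotic cells, so each library matched its genotype label. All 12 spermatid markers listed rose from meiotic to post-meiotic cells in both genotypes, where 29.6% of all genes rose in WT and 29.5% in KO. Of 11 pachytene markers 7 fell and 3 rose in both, with a median log2 of -1.07 in WT and -1.23 in KO. Their summed level was 9478 and 9888 CPM in WT meiotic and 9926 and 9982 in WT post-meiotic libraries, so the sum does not follow most of these markers. Levels are given below as CPM, the reads of a gene in each 1000000 counted after TMM scaling, and a change is called at an edgeR adjusted p under 0.01. A count limited to log2 changes beyond 1 is given as well.

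The stem-loop at the mRNA end is the sequence that sets these genes apart from other genes, and it is shown for the gene with most reads in each class and for variants of it. A 16-base match was found 25 to 62 bases after the coding end of 58 of the 64 genes in the mm9 genome. Capitals mark the stem-loop, and 5 bases are given on each side, 5′ to 3′ on the gene's strand.
Hist1h1a: ccaacGGCTCTTTTCAGAGCCaccaa
Hist1h2ai: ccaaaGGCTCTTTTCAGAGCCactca
Hist1h2bb: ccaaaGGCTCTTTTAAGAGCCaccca
Hist1h3f: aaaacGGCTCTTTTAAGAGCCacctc
Hist1h3g: ttaaaGGCTCTTCTTAGAGCCaccca
Hist1h4c: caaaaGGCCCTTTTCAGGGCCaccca
Hist1h4h: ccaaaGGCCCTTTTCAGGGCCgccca
Hist1h4j: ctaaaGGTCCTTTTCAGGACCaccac
Hist1h4a: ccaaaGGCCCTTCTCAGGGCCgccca
Hist2h2ac: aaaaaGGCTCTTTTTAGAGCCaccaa
Hist3h2a: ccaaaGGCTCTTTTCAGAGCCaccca
The form of Hist1h1a and Hist1h2ai was found in 5 of 5 H1, 13 of 18 H2A, 12 of 17 H2B and 7 of 12 H3 genes, and in no H4 gene. The 12 H4 genes all carried a stem with other bases, in the form of Hist1h4c in 7 of them. Hist1h2bb and Hist1h3f share another form, which 1 H2A, 3 H2B and 3 H3 genes carried, and Hist2h2ac and Hist1h3g each had a form found in no other gene of their class. No match was found for Hist2h2be, Hist2h2bb, Hist2h3c2, Hist1h2an, Hist1h2aj and Hist1h2al. The search covered 200 bases from the annotated coding end, so a missing match can reflect the gene model. Hist2h3c2 and Hist1h2aj have no annotated coding sequence and could not be searched. In 20 genes the annotated end lies 100 bases or more past the stem-loop, for example 1487 bases in Hist3h2a and 108 bases in Hist1h3f. These distances run along the genome and can include introns of the annotated models, since only 57 of the 64 genes have a model of 1 exon stretch.

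Promoters matched by symbol for 57 of the 64 genes (RefSeq, GRCm38.p6, 250 bases before to 50 after the start). They are shown for the leading genes of H2B, H4 and H1 and for Hist1h2bp, whose levels went another way than most. Capitals mark TATAAA, the CCAAT box and the ATTTGCAT octamer on either strand.
Hist1h2bb, chr13:23746484-23746783, plus strand: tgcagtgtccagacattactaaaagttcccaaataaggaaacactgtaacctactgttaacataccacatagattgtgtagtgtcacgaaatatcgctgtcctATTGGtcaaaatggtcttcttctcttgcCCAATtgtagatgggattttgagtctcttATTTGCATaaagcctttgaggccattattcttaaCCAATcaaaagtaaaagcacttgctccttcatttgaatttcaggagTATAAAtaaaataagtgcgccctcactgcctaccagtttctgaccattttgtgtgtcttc
Hist1h4c, chr13:23698409-23698708, minus strand: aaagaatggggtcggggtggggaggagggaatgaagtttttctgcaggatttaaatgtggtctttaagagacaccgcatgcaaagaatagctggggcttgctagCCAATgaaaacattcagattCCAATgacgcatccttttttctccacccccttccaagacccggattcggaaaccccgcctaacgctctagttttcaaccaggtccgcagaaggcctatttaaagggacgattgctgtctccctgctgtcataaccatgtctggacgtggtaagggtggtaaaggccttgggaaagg
Hist1h1a, chr13:23763418-23763717, plus strand: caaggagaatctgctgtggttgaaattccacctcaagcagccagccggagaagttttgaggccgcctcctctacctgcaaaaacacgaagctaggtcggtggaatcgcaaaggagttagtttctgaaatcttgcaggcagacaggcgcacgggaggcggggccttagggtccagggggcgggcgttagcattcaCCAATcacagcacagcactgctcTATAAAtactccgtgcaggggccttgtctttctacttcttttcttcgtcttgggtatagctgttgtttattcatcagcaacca
Hist1h2bp, chr13:21787238-21787537, plus strand: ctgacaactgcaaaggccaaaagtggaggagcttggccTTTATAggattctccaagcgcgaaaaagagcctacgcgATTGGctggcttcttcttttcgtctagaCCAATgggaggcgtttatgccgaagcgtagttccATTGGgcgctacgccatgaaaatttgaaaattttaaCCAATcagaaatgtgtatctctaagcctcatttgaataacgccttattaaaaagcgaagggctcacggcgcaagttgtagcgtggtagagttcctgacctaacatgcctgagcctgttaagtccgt
CCAAT, the letters bound by NF-Y, stood in every matched promoter of H1 (5), H2A (16), H2B (15) and H3 (10) and in 3 of 11 H4 promoters, against 37.4% of 32851 promoters. ATTTGCAT, the octamer bound by the POU2F1 factor, stood in 6 of 16 H2A and 5 of 15 H2B promoters and in none of the H1, H3 and H4 promoters, against 1.74% of all. Hist1h2be was counted by its promoter at chr13:23621045-23621344, which has no ATTTGCAT. Its other listed promoter, at chr13:23585921-23586220, has 1 and was not counted. TATAAA stood in 32 of 57, or 56.1%, against 13.6% of all. Promoters of some neighbouring H2A and H2B genes overlap, such as those of Hist1h2ah and Hist1h2bk, so the same site can count for both genes. The TTTATA marked in the Hist1h2bp promoter is also the TATAAA of the Hist1h2an promoter, on the other strand. CCAAT and ATTTGCAT can share letters where they lie side by side. A match is a description of the letters and not a site of binding.

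Histone genes are so alike that reads cannot always be placed, and the authors kept unique alignments only. All 12 H4 genes encode the same protein, as do 8 of the H2A genes, and the 62 genes with a coding sequence in the annotation encode 29 different proteins. Of the 50-base stretches of their exons, the length of a read, a median of 50.4% occur once in the mm9 genome. The share is 0% in Hist2h2aa1, Hist2h2aa2, Hist1h2ao, Hist1h2bq and Hist1h2br and 100% in Hist1h1a, Hist1h1b, Hist2h2bb and Hist4h4. Together with Hist1h4n (7.09%), Hist1h2aj (7.55%) and Hist1h2al (28.6%), those at 0% make up the 8 genes with too few reads to test, none of which had more than 13 reads in a library. The 56 genes tested are all of the H1 and H3 genes, 13 of 18 H2A, 15 of 17 H2B and 11 of 12 H4. A low count can therefore stand for low expression or for shared sequence, and the class sums below count only what could be placed.

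**Figure D1:**
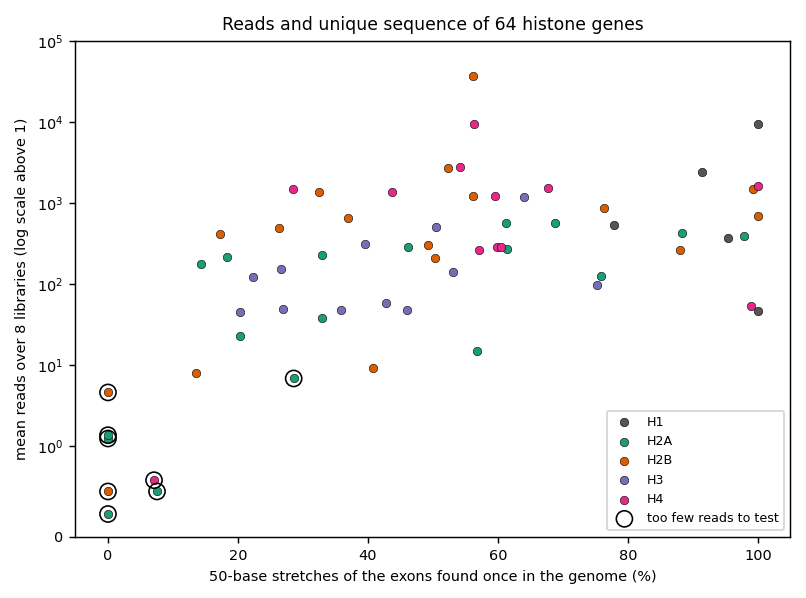
Mean reads over the 8 libraries (y axis, log scale above 1) against the share of 50-base stretches of each gene's exons that occur once in the genome (x axis, %), with 1 point for each of the 64 genes, coloured by class. The circled points are the 8 genes with too few reads to test, 7 of which lie under 8% unique sequence.

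Per kilobase of unique sequence, levels in WT meiotic cells could be set for 54 of the 56 tested genes, without Hist1h2an and Hist1h2bn, which have under 50 unique positions. Hist1h2bb, an H2B gene of chromosome 13 (chr13:23838603-23839071, mm9), led with 2929.7 ± 226 CPM per unique kilobase (mean ± SD, n = 2). It was followed by Hist1h4c with 727 ± 36, clear of Hist1h4k at 235 ± 3.2 and Hist1h4h at 231 ± 24.4, which did not differ beyond their spread. Hist1h1a, the gene of the H1.1 subtype, came next at 146 ± 5.09. The first H2A gene was Hist1h2ag at 36.7 ± 1.34 and the first H3 gene Hist1h3a at 24.3 ± 0.145. Hist1h4k rests on 75 unique positions and Hist1h2ag on 77, and the SD covers only the spread between libraries. The lowest of the 54 was Hist2h4 at 0.459 ± 0.113, an H4 gene on chromosome 3 whose sequence is 99.0% unique. Its annotated end lies 1235 bases past the stem-loop, in a model of 1608 bases that all enters the divisor. Levels of such genes are therefore set low beside those of genes annotated to end near the stem-loop. In KO meiotic cells Hist1h2bb and Hist1h4c led again with 4819 ± 354 and 1337 ± 5.71, while Hist1h3f led the H3 genes with 75.7 ± 0.0311 against 13 ± 1.49 in WT. In WT post-meiotic cells the order of the leaders was Hist1h2bb at 338 ± 10.8, Hist1h4c at 237 ± 0.110 and Hist1h4k at 182 ± 8.26.

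In meiotic cells the histone genes were mostly higher in KO than in WT. Of 56 tested, 38 rose and 2 fell, where 8.98% of all 20412 genes tested rose and 8.55% fell. With a log2 change beyond 1 there were 16 that rose, against 1.32% of all genes, and 0 that fell, against 0.862%, while DESeq2 called 12 and 0. The median log2 change was 0.76 over the 56 genes and 0.00 over all genes. At an unadjusted p under 0.05, the count that fell with a log2 beyond -1 was also 0, as the lowest log2 was -0.54. The called increases were 4 of 5 H1, 7 of 13 H2A, 11 of 15 H2B, 8 of 12 H3 and 8 of 11 H4 genes. In 48 genes both KO libraries lay above both WT libraries, which holds for 32.7% of all genes, and in 5 both lay below, against 30.3%. A change in the share of a cell type, such as fewer cells of it, and less RNA per cell cannot be told apart in these fractions.

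**Figure D2:**
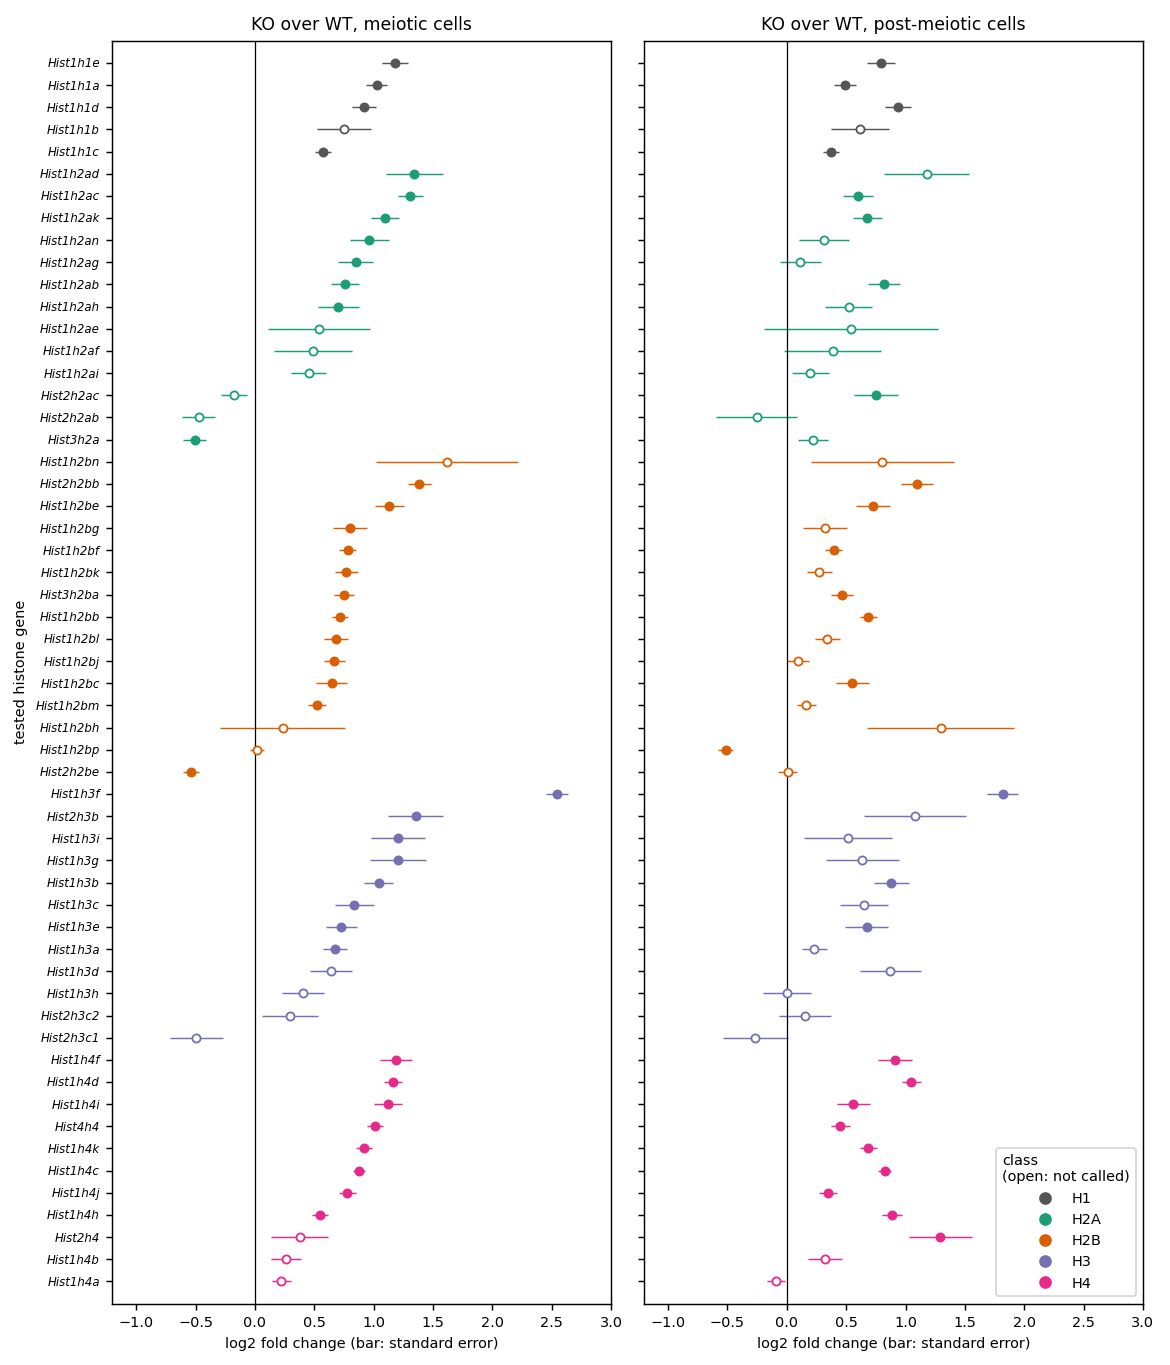
Log2 fold change of KO over WT (x axis) for each of the 56 tested histone genes (y axis), in meiotic cells on the left and post-meiotic cells on the right. Points are edgeR estimates with their standard error, filled where the adjusted p is under 0.01, and the left panel shows Hist1h3f apart from all others at 2.55.

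The H1 genes summed to 143 ± 4.81 CPM in WT and 275 ± 24.0 in KO meiotic cells (1.92-fold), and to 137 ± 6.15 and 192 ± 18.8 in post-meiotic cells. H1 binds the linker DNA at the entry of the nucleosome. Hist1h1a gave 70.2% to 76.1% of the H1 reads. Its level was 105 and 99.5 CPM in the WT and 194 and 222 in the KO meiotic libraries, and 103 and 92.8 and 126 and 149 in post-meiotic cells. The groups do not overlap by genotype in either stage, and WT levels were alike in both stages. It rose 2.04-fold in KO meiotic cells (log2 1.03 ± 0.091, edgeR adjusted p = 3.51e-05) and less in KO post-meiotic cells (log2 0.49 ± 0.091, edgeR adjusted p = 0.00262), and the latter call is lost without WT post-meiotic replicate 2 (log2 0.40, adjusted p = 0.012). Hist1h1c, the gene of H1.2, changed least of the class, from 31 and 30.4 to 43.5 and 47.9 CPM (log2 0.57 ± 0.065, edgeR adjusted p = 2.26e-06). Hist1h1e, the gene of H1.4, went from 6.13 and 4.87 to 12 and 12.9 CPM (log2 1.18 ± 0.11, edgeR adjusted p = 1.56e-07). Hist1h1d rose as well (log2 0.92), and Hist1h1b with 29 to 94 reads was not called in any comparison. Between WT meiotic and WT post-meiotic cells 0 of 5 H1 genes were called by edgeR (1 lower at an unadjusted p under 0.05), and their log2 values ran from -0.30 to -0.03, while 3 of 5 fell between the KO stages.

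Of the 13 tested H2A genes, 7 rose and 1 fell in KO meiotic cells, and those that rose all lie on chromosome 13. The class summed to 53.5 ± 1.76 CPM in WT and 75.3 ± 2.65 in KO meiotic cells (1.41-fold), and to 27.7 ± 2.00 and 38.1 ± 6.21 in post-meiotic cells. No gene dominated the class, whose leader Hist1h2ai held 14.5% to 23.94% of its reads. Hist1h2ai had 9.07 and 7.59 CPM in WT and 11.3 and 11.5 in KO meiotic cells and was not called (log2 0.45 ± 0.15, edgeR adjusted p = 0.0381). Hist1h2ak, next by reads, rose from 6.01 and 5.48 to 12.1 and 12.5 CPM (log2 1.1 ± 0.12, edgeR adjusted p = 1.60e-06). Hist1h2ac rose from 4.79 and 5.02 to 11.7 and 12.6 CPM (log2 1.31 ± 0.10, edgeR adjusted p = 2.63e-08). Hist1h2ad had few reads, 30 and 24 against 62 and 119 (log2 1.34 ± 0.24, edgeR adjusted p = 2.95e-04), and its call is lost without KO meiotic replicate 2 (adjusted p = 0.012).

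The other called H2A genes rose by log2 0.70 (Hist1h2ah), 0.76 (Hist1h2ab), 0.85 (Hist1h2ag) and 0.96 (Hist1h2an). Hist3h2a of chromosome 11 fell from 10.2 and 10.1 to 6.86 and 7.41 CPM in KO meiotic cells (log2 -0.51 ± 0.099, edgeR adjusted p = 6.68e-04), one of the 2 histone genes that fell. It overlaps Trim17, and without a stated strand setting for the counting their reads cannot be told apart, and Trim17 itself was not called (log2 -0.05). Hist2h2ab on chromosome 3 had 4.23 and 3.67 CPM in WT and 2.79 and 2.90 in KO and was not called (log2 -0.47 ± 0.14, edgeR adjusted p = 0.0147). Hist2h2ac, its neighbour, had the smallest change of the class, with 7.02 and 7.28 and 6.64 and 6.07 CPM (log2 -0.17 ± 0.11, edgeR adjusted p = 0.248). In post-meiotic cells the same gene was higher in KO, 1.33 and 1.24 against 0.821 and 0.699 CPM (log2 0.75 ± 0.19, edgeR adjusted p = 0.00398), a call that is lost without any single post-meiotic library and with DESeq2. Over the stages Hist2h2ab and Hist2h2ac had the largest and second largest falls of all 56 genes in WT cells, to 0.306 and 0.287 CPM (log2 -3.73 ± 0.21, edgeR adjusted p = 2.04e-12) and to 0.821 and 0.699 CPM (log2 -3.23 ± 0.15, edgeR adjusted p = 1.17e-13). Hist2h2ab overlaps Gm15444, and their reads cannot be told apart. Gm15444 itself was not called between the WT stages (log2 -0.54, edgeR adjusted p = 0.111).

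In the H2B class Hist1h2bb led by far and held 37.5% to 85.3% of its reads. The 17 genes summed to 850.1 ± 54.7 CPM in WT and 1346 ± 78.8 in KO meiotic cells (1.58-fold), and to 211 ± 5.25 and 263 ± 12.3 in post-meiotic cells (1.24-fold). Without Hist1h2bb the ratios were 1.32 and 1.02 in meiotic and post-meiotic cells. Hist1h2bb had 654 and 729 CPM in WT and 1196 and 1078 in KO meiotic libraries, and 81.5 and 77.9 and 136 and 120.3 in post-meiotic libraries. It rose in KO by a like amount at both stages (meiotic: log2 0.72 ± 0.070, edgeR adjusted p = 1.13e-05; post-meiotic: log2 0.69 ± 0.073, edgeR adjusted p = 2.18e-05; the difference is -0.03 ± 0.10). Hist2h2bb, on chromosome 3 and with no stem-loop match, rose most among the called H2B genes, from 7.84 and 9.06 to 21.1 and 22.9 CPM (log2 1.39 ± 0.10, edgeR adjusted p = 6.63e-09). Its span of 9281 bases overlaps the gene RP24-201C14.10, which rose as well (log2 1.58), and their reads cannot be told apart. Hist1h2bn had a higher estimate but 2 to 21 reads (log2 1.62 ± 0.60, edgeR adjusted p = 0.0482). The other 9 called H2B genes rose by log2 0.52 (Hist1h2bm) to 1.13 (Hist1h2be). Of these, Hist1h2bm overlaps Hist1h2aj and Hist1h2be overlaps Gm11398, with the same limit on their reads.

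Hist2h2be and Hist1h2bp were the H2B genes with a called fall in KO cells, each at 1 stage. Hist2h2be, also on chromosome 3 and also with no stem-loop match, fell from 37.7 and 38.9 to 27.3 and 25.4 CPM in KO meiotic cells (log2 -0.54 ± 0.069, edgeR adjusted p = 9.49e-06). In post-meiotic cells it had 11.7 and 12.3 in WT and 12.7 and 11.3 in KO (log2 0.01 ± 0.079, edgeR adjusted p = 0.948). Hist1h2bp (chr13:21879330-21881082, mm9) had 35.4 and 39.1 CPM in WT and 37.9 and 37.4 in KO meiotic cells, 53.3 and 53.5 in WT and 38.2 and 36.5 in KO post-meiotic cells. Only the WT post-meiotic libraries stood apart from the other 6. It rose between the WT stages (log2 0.52 ± 0.060, edgeR adjusted p = 1.50e-07), not between the KO stages (log2 -0.01 ± 0.060, edgeR adjusted p = 0.882), and was the 1 histone gene that fell in KO post-meiotic cells (log2 -0.52 ± 0.060, edgeR adjusted p = 3.35e-06). Its annotated end lies 1275 bases past its stem-loop along the genome, in a model of 2 exon stretches with 706 exon bases.

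**Figure D3:**
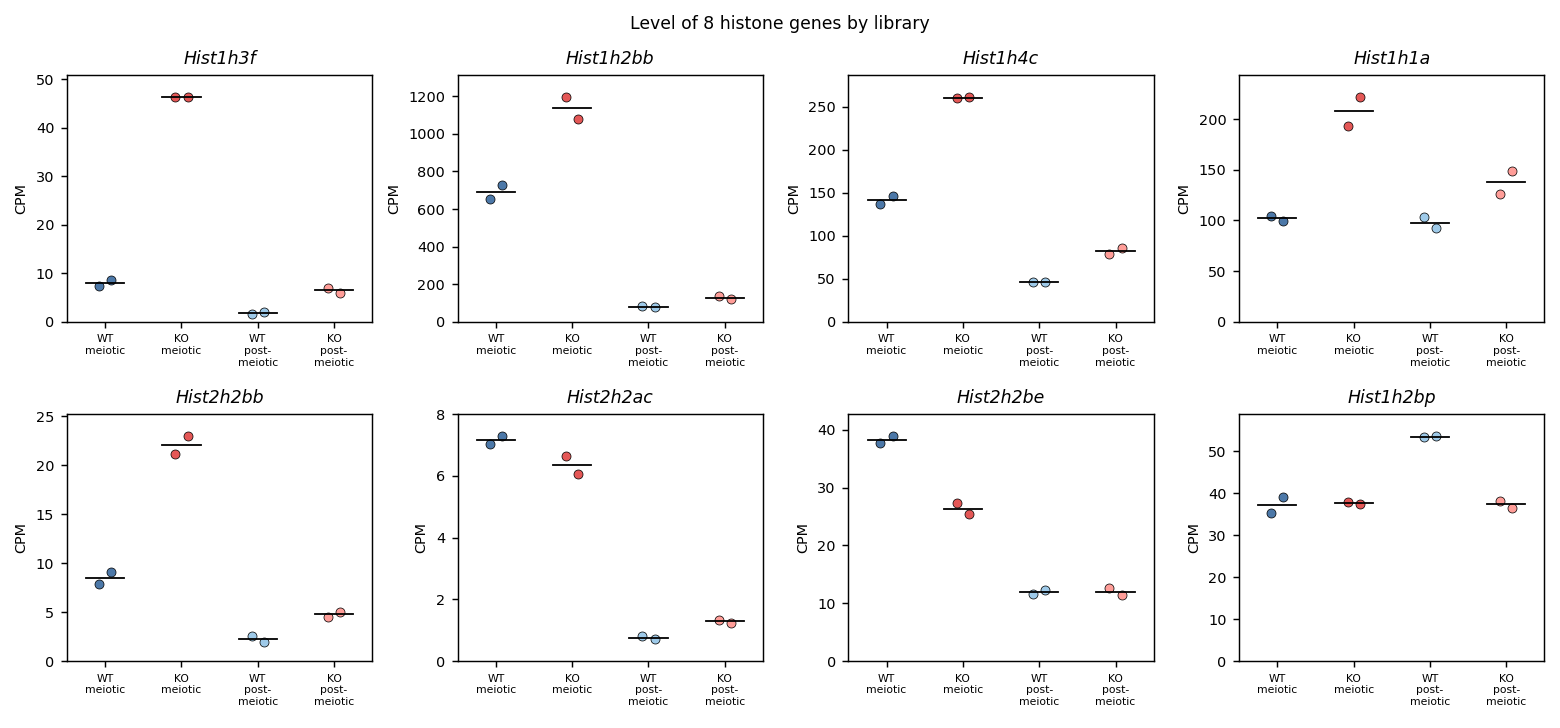
CPM (y axis, from 0) of 8 histone genes in the 2 libraries of each group (points) with the group mean (line). Hist1h3f, Hist1h2bb, Hist1h4c, Hist1h1a and Hist2h2bb are higher in KO at both stages, Hist2h2be is lower in KO meiotic cells, and Hist1h2bp is highest in the 2 WT post-meiotic libraries.

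The H3 class had the largest ratio of its sum in KO meiotic cells, 81.9 ± 0.152 CPM against 29.1 ± 0.650 in WT (2.82-fold). In post-meiotic cells it was 26.9 ± 2.28 against 17.2 ± 0.786 (1.56-fold). Hist1h3f (chr13:23635921-23636924, mm9) made up most of the meiotic gap, and without it the ratio was 1.68 in meiotic and 1.32 in post-meiotic cells. Hist1h3f had 473 and 505 reads in WT and 2921 and 4559 in KO meiotic libraries, or 7.28 and 8.57 and 46.3 and 46.3 CPM. In post-meiotic cells it had 1.59 and 2.1 CPM in WT and 6.94 and 6.01 in KO, so that the KO post-meiotic libraries came near the WT meiotic ones. The rise was 5.85-fold in meiotic cells (log2 2.55 ± 0.094, edgeR adjusted p = 9.51e-13) and 3.53-fold in post-meiotic cells (log2 1.82 ± 0.13, edgeR adjusted p = 1.17e-08), and the stages did not differ at the limit used (log2 -0.73 ± 0.17, edgeR adjusted p = 0.0115). Its share of the H3 reads ran from 9.59% to 56.6% over the libraries.

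Of the other 7 called H3 genes, Hist1h3b rose from 4.07 and 3.72 to 7.97 and 8.09 CPM in KO meiotic cells (log2 1.04 ± 0.12, edgeR adjusted p = 3.52e-06) and Hist1h3a from 5.99 and 5.94 to 9.37 and 9.68 CPM (log2 0.68 ± 0.10, edgeR adjusted p = 6.54e-05). Hist2h3b rose with few reads, 33 and 40 against 112 and 128 (log2 1.35 ± 0.23, edgeR adjusted p = 2.08e-04), and it too overlaps RP24-201C14.10. Hist2h3c2 changed least, with 0.539 and 0.543 and 0.682 and 0.650 CPM (log2 0.29 ± 0.24, edgeR adjusted p = 0.383). By annotated protein, the 6 genes with the H3.2 protein of Hist1h3b, which include Hist1h3f, all fell between the WT stages, with a median log2 of -1.44. Hist2h3c1, with an annotated protein of 181 residues, and Hist2h3c2, with no annotated coding sequence, were placed in neither set. From WT meiotic to WT post-meiotic libraries Hist2h3c1 went from 74 and 86 to 49 and 38 reads, and Hist2h3c2 from 35 and 32 to 49 and 47. Of the 4 genes of H3.1, which include Hist1h3a, 1 fell, with a median of -0.49. In KO against WT, 5 of 6 H3.2 genes and 3 of 4 H3.1 genes rose in meiotic cells, and 3 of 6 and 0 of 4 in post-meiotic cells by edgeR (1 of the 4 at an unadjusted p under 0.05). The difference between the H3.1 and H3.2 genes was not tested.

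All 11 tested H4 genes lay above 0 in KO meiotic cells, from log2 0.22 to 1.19 (Hist1h4f), and 8 rose. The class summed to 297 ± 12.7 CPM in WT and 524 ± 8.61 in KO meiotic cells (1.77-fold), and to 133 ± 1.37 and 206 ± 8.39 in post-meiotic cells (1.56-fold). Hist1h4c held 34.6% to 50.1% of its reads. It had 137 and 147 CPM in WT and 259.8 and 261 in KO meiotic cells (log2 0.88 ± 0.052, edgeR adjusted p = 3.94e-10), and 46.3 and 46.2 and 78.4 and 85.3 in post-meiotic cells (log2 0.82 ± 0.054, edgeR adjusted p = 2.71e-09). Hist1h4h rose from 48.7 and 56.6 to 74.7 and 79.0 CPM in meiotic cells (log2 0.55 ± 0.068, edgeR adjusted p = 7.06e-06) and from 10.9 and 9.84 to 19.3 and 19.1 in post-meiotic cells (log2 0.89 ± 0.080, edgeR adjusted p = 1.97e-07). Hist4h4, alone on chromosome 6, rose from 23.3 and 23.8 to 46.5 and 48.4 CPM in meiotic cells (log2 1.01 ± 0.066, edgeR adjusted p = 1.79e-09). Hist1h4d had 9.55 and 9.50 CPM in WT and 18.7 and 20.8 in KO post-meiotic cells (log2 1.05 ± 0.080, edgeR adjusted p = 1.75e-08). Hist2h4 had only 22 and 32 reads in WT and 73 and 63 in KO post-meiotic cells (log2 1.29 ± 0.27, edgeR adjusted p = 8.82e-04), and this call is lost without post-meiotic replicate 1 of either genotype. Hist1h4a was the H4 gene that changed least in KO meiotic cells, with 14.5 and 16.8 and 18.5 and 17.9 CPM (log2 0.22 ± 0.079, edgeR adjusted p = 0.0396). Its end lies 108 bases past its stem-loop.

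**Figure D4:**
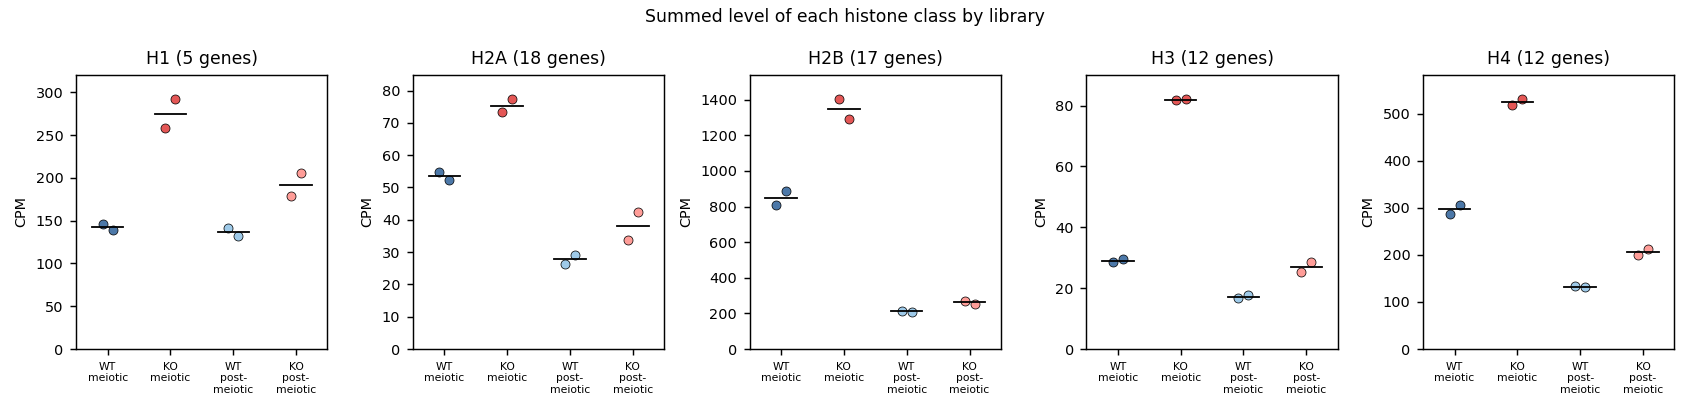
Summed CPM (y axis, from 0) of the genes of each class in the 2 libraries of each group (points) with the group mean (line). In all 5 classes both KO libraries lie above both WT libraries at either stage, with the widest gap, 2.82-fold, in H3 in meiotic cells.

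From meiotic to post-meiotic cells more histone genes fell than rose in both genotypes. In WT, 29 of 56 fell, 2 rose and 25 were not called, where 32.4% of all genes fell and 29.6% rose, so the share that fell, 51.8%, was above that of all genes. In KO, 42 fell, against 31.5% of all genes, and 0 rose by edgeR or by DESeq2, where 29.5% of all genes rose, with 0 higher at an unadjusted p under 0.05. Beyond a log2 of 1, 15 fell in WT, against 14.5% of all genes, and 24 in KO, against 11.8%, where 0 rose in KO by either tool, against 10.3%. Both post-meiotic libraries lay below both meiotic ones in 50 genes in KO, against 40.9% of all genes, and above in 3, against 43.7%. The median log2 was -0.62 in WT and -0.77 in KO, beside 0.01 and 0.05 over all genes. Of the 29 genes that fell in WT, 28 also fell in KO, which is 96.6% of the WT and 66.7% of the KO list, from separate libraries. No like overlap over all genes is given here, so this overlap cannot be called particular to histone genes. The 2 that rose in WT were Hist1h2bp, described above, and Hist1h4a, which went from 14.5 and 16.8 to 20.1 and 21.6 CPM (log2 0.41 ± 0.079, edgeR adjusted p = 1.04e-04) and in KO from 18.5 and 17.9 to 19.8 and 19.2 (log2 0.10 ± 0.078, edgeR adjusted p = 0.267).

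The size of the fall differed between classes and genes. The H2B sum was 0.249 of its meiotic level in WT post-meiotic cells and 0.195 in KO, the H4 sum 0.448 and 0.394, the H2A sum 0.517 and 0.502, the H3 sum 0.590 and 0.327, and the H1 sum 0.955 and 0.699. Without Hist1h2bb the H2B ratio was 0.829 in WT and 0.645 in KO, and without Hist1h3f the H3 ratio was 0.725 and 0.569. Hist1h2bb had the third largest fall in WT (log2 -3.12 ± 0.077, edgeR adjusted p = 5.69e-13) and fell by a like log2 in KO (log2 -3.15 ± 0.076, edgeR adjusted p = 5.94e-13). Hist1h4h followed in WT (log2 -2.34 ± 0.078, edgeR adjusted p = 1.58e-15), and then Hist1h3f (log2 -2.11 ± 0.13, edgeR adjusted p = 1.23e-11). In KO the 5 largest falls were those of Hist2h2ab (log2 -3.51), Hist1h2bb, Hist1h3f (log2 -2.83 ± 0.096, edgeR adjusted p = 3.32e-15), Hist2h2ac (log2 -2.30) and Hist2h3b (log2 -2.30). Across the 56 genes the 2 changes had a Pearson r of 0.89 and a Spearman rho of 0.87, a description over genes that share sequence and libraries.

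**Figure D5:**
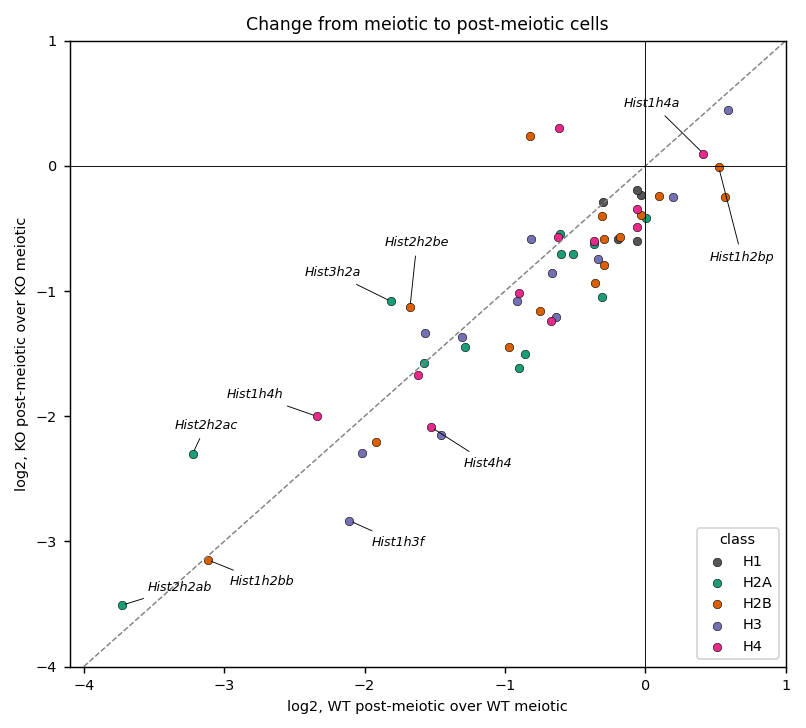
Log2 change from meiotic to post-meiotic cells in KO (y axis) against the same in WT (x axis) for the 56 tested genes, coloured by class, with the dashed line of equal change. Hist2h2ab, Hist2h2ac and Hist1h2bb lie lowest in WT at -3.73, -3.23 and -3.12, and Hist1h2bp is at 0.52 in WT and -0.01 in KO.

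In post-meiotic cells 26 of 56 genes rose in KO and 1 fell, where 12.4% of all genes rose and 11.6% fell. Beyond a log2 of 1 there were 4 that rose, against 2.19% of all genes, namely Hist1h3f, Hist2h4, Hist2h2bb (log2 1.09 ± 0.14, edgeR adjusted p = 6.39e-06) and Hist1h4d, and 0 that fell by edgeR as by DESeq2. The median log2 was 0.55, beside 0.04 over all genes. The count that rose was 17 without WT post-meiotic replicate 2 and 17 without KO post-meiotic replicate 2. By class, 9 of 11 H4, 4 of 5 H1, 6 of 15 H2B, 4 of 13 H2A and 3 of 12 H3 genes rose. Of the 26, 24 had also risen in meiotic cells (92.3% of them, and 63.2% of the 38 of meiotic cells), from separate libraries. The like overlap over all genes is not given here either. In 45 genes both KO libraries lay above both WT libraries, which holds for 38.7% of all genes.

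Few genes differed in their KO change between the stages. The difference, post-meiotic minus meiotic, was called above 0 in 2 genes, where 1.68% of all genes were, and below 0 in 3, where 0.921% were. Beyond a log2 of 1 edgeR and DESeq2 called 0 histone genes, where edgeR called 0.5% of all genes above 0 and 0.0049% below. Those above 0 were Hist3h2a (log2 0.73 ± 0.16, edgeR adjusted p = 0.00882) and Hist2h2be (log2 0.55 ± 0.10, edgeR adjusted p = 0.00401), which had fallen in KO meiotic cells. Those below 0 were Hist1h2bj (log2 -0.58 ± 0.13, edgeR adjusted p = 0.00921), Hist4h4 (log2 -0.56 ± 0.10, edgeR adjusted p = 0.00288) and Hist1h2bp (log2 -0.53 ± 0.085, edgeR adjusted p = 0.00114). Hist1h2bj had 9.36 and 8.69 CPM in WT and 13.8 and 14.9 in KO meiotic cells, and 7.13 and 6.97 and 7.27 and 7.79 in post-meiotic cells. Each of these calls is lost without at least 2 of the single libraries. The count above 0 was 0 without WT meiotic replicate 1 or 2, WT post-meiotic replicate 1 or 2, KO meiotic replicate 2 or KO post-meiotic replicate 1, and 1 without KO meiotic replicate 1 or KO post-meiotic replicate 2. The count below 0 was 0 without WT meiotic replicate 1 or KO post-meiotic replicate 1, and 2 or 3 without any other. The median difference was -0.27 over the 56 genes, with 43 below 0, beside 0.00 over all genes.

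By position, the genes of the largest cluster (chr13:23622919-23856283, mm9, 28 genes, all tested) had a median log2 of 0.79 in KO meiotic cells with 22 called higher and 0 lower. The cluster at chr13:21807632-21929399 had 0.76 with 7 of 12 higher, and that at chr13:22126982-22135545 had 0.77 with 5 of 5 higher. The 8 tested genes of chromosome 3 had a median of 0.06, with 2 higher and 1 lower. In WT they had the lowest median over the stages, -1.80, against -0.06 in the second of these clusters and -0.71 in the first. In post-meiotic cells the median KO change was 0.68, 0.34 and 0.27 in the 3 chromosome 13 clusters in that order, and 0.45 on chromosome 3, with 3 of 8 higher. Differences between clusters were not tested. Genes with 50% or more unique sequence had a median of 0.75 in KO meiotic cells and those under 50% had 0.77, and across the 56 genes the share of unique sequence and the KO change had a Pearson r of -0.12 and a Spearman rho of -0.06.

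H2A and H2B genes often share a promoter region, facing away from each other, and 9 such pairs had both genes tested. In KO meiotic cells, where 51 of the 56 genes lay above 0, both genes of a pair lay on the same side of 0 in all 9. Between the WT stages Hist1h2an and Hist1h2bp lay on opposite sides (log2 -0.86 and 0.52), as did Hist1h2ai and Hist1h2bl (-0.37 and 0.10). In KO post-meiotic cells Hist1h2an and Hist1h2bp again lay on opposite sides (0.31 and -0.52). In KO meiotic cells Hist1h2an stood at 0.96 and its partner Hist1h2bp, 242 bases away, at 0.02. Hist2h2ac and Hist2h2be of chromosome 3, 240 bases apart, both lay below 0, at -0.17 and -0.54. By promoter letters, the median log2 in KO meiotic cells was 0.72 for the 11 tested genes with ATTTGCAT and 0.81 for the 40 without it, and 0.79 and 0.67 with and without TATAAA. Hist1h2be was counted among the genes without ATTTGCAT, though another of its listed promoters has it. By the mRNA end, it was 0.78 for the 34 genes annotated to end within 100 bases of the stem-loop and 0.64 for the 18 that run further. Of the 34, 26 rose and 0 fell by edgeR (1 lower at an unadjusted p under 0.05), and of the 18, 10 rose and 1, Hist3h2a, fell. Of the 4 tested genes with no match 2 rose and 1, Hist2h2be, fell. These 4 include Hist2h3c2, which could not be searched. The difference between these sets was not tested.

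Set beside the H3.3 genes, the replication-dependent H3 genes took a larger share of the H3 reads in KO cells. They made up 3.92% and 4.09% of CPM over these genes, H3f3a and H3f3b in WT meiotic libraries and 34.1% and 33.6% in KO. For post-meiotic cells it was 4.34% and 4.97% in WT libraries, against 17.2% and 18.6% in KO. The loss of H3f3b reads alone raises this share. H3f3a, the other H3.3 gene, was not called between genotypes (meiotic: log2 0.13 ± 0.048, edgeR adjusted p = 0.0432; post-meiotic: log2 -0.11 ± 0.049, edgeR adjusted p = 0.0797). Of the testis variants left out by name, Hist1h2aa (TH2A) rose in KO meiotic cells (log2 1.30 ± 0.060, edgeR adjusted p = 6.24e-11), as did Hist1h2ba (TH2B, log2 0.76 ± 0.048, edgeR adjusted p = 9.74e-10) and, less, Hist1h1t (log2 0.26 ± 0.054, edgeR adjusted p = 0.00131). Over the WT stages Hist1h1t fell further than any of the 56 genes (log2 -4.74 ± 0.065, edgeR adjusted p = 3.09e-20).

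Of 23 tested factors of transcription and 3′ end processing, 4 rose and 5 fell in KO meiotic cells, where 8.98% of all genes rose and 8.55% fell, with a median log2 of 0.07. Casp8ap2, a part of the histone locus body, rose (log2 0.37 ± 0.068, edgeR adjusted p = 4.37e-04). Cstf2 (log2 0.30 ± 0.063, edgeR adjusted p = 0.00167) and Lsm11 of the U7 snRNP (log2 0.65 ± 0.14, edgeR adjusted p = 0.00187) rose as well. Upf1, which acts in the decay of histone mRNA, fell (log2 -0.32 ± 0.048, edgeR adjusted p = 5.64e-05). So did Cdk2, a kinase of S phase entry (log2 -0.37 ± 0.057, edgeR adjusted p = 5.99e-05), and Cpsf2 (log2 -0.23 ± 0.055, edgeR adjusted p = 0.00358). Of 15 histone chaperones of replication, 2 rose, a share near the 8.98% of all genes, namely Hat1 (log2 0.37 ± 0.055, edgeR adjusted p = 4.97e-05) and Asf1b (log2 0.25 ± 0.060, edgeR adjusted p = 0.00399), with a median of 0.02. Of 27 genes of DNA replication and S phase, 11 rose and 1 fell, among them Mcm5 (log2 0.52 ± 0.065, edgeR adjusted p = 7.08e-06), Mcm3 (log2 0.58 ± 0.085, edgeR adjusted p = 4.10e-05) and Pold1 (log2 0.50 ± 0.070, edgeR adjusted p = 2.42e-05), with a median of 0.23. In KO post-meiotic cells 8 of these 27 rose and 3 fell, where 12.4% of all genes rose and 11.6% fell.

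Markers of other cells are to be read beside the same shares of all genes, 8.98% higher and 8.55% lower in KO meiotic cells and 12.4% and 11.6% in KO post-meiotic cells. Of 11 genes of preleptotene and leptotene cells, which are in or just past the last S phase, 7 rose in KO meiotic cells, with a median log2 of 0.64. Among them were Ccnb3 (log2 1.09 ± 0.097, edgeR adjusted p = 1.05e-07) and Dmc1 (log2 1.01 ± 0.082, edgeR adjusted p = 3.07e-08). The summed level of the 11 was 724 and 709 CPM in WT and 742 and 830.4 in KO meiotic libraries. In KO post-meiotic cells 6 of the 11 rose and 1 fell, with a median log2 of 0.44. Between the WT stages 4 of the 11 rose and 3 fell. Of 14 genes of spermatogonia, which divide and replicate, 4 rose and 1, Dmrtb1, fell in KO meiotic cells, with a median log2 of 0.16. Their sums were 634 and 649 CPM in WT and 610.4 and 604 in KO. Dmrtb1 alone held 492 and 515 CPM of these in WT and 458 and 431 in KO, so the sums mostly follow this gene. Of 10 leukocyte genes, 2 rose in meiotic and 6 in post-meiotic KO cells, with sums of 9.18 and 9.76 CPM against 23.7 and 18.4 CPM in WT and KO meiotic libraries and 47.5 and 47.6 and 106 and 89.1 in post-meiotic libraries. Of 5 red cell genes 4 rose in KO post-meiotic cells, with sums of 11.9 and 11.3 in WT and 32.8 and 30.9 in KO. In post-meiotic cells 3 of 8 Sertoli cell genes and 2 of 7 peritubular genes rose in KO. In meiotic cells 2 of 7 Leydig cell genes and 1 of 7 peritubular genes fell, as did 4 of 11 pachytene genes, of which 2 others rose, and 2 of 12 spermatid genes. None of these markers was at 0 in all libraries, and their part in the histone changes was not tested.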

How the data were processed

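Reads of 50 bases, single-end, came from TruSeq stranded libraries of total RNA, which hold mRNA without poly(A) too. The authors used TopHat2 2.0.14 over Bowtie2 2.1.0 for alignment on mm9 and kept unique alignments. The deposited values are raw read counts per gene, made by the authors with HTSeq 0.6.1 on Ensembl models. The strand setting of the counting is not given in the sources used here. The authors' log2 values and adjusted p-values (DESeq2 1.14.1), and the tables of piRNA clusters and repeats, were not used.

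The histone genes and the gene lists were chosen with earlier results of these data known. Counts were tested in R 4.3.3 with edgeR 4.0.16: expression filter, TMM scaling, a robust quasi-likelihood fit over all 8 libraries and 4 groups, and Benjamini-Hochberg adjustment over 20412 genes. Limits were an adjusted p under 0.01 and, where stated, a log2 beyond 1. A standard error is the log2 change over the square root of F. Class sums were not tested. Genes were named by size of change, by level and by smallest change per class, and if not tested. Other genes named, such as Hist3h2a and Hist1h2bj, were added after their values were seen. Calls and gene results were recomputed with RLE factors, with totals, TMM without the histone genes, DESeq2 1.42.0, no filter, a replicate block, each library left out, overlapping genes left out and, except for the stage difference, the 4 libraries compared. Class sums were recomputed with the 3 other scalings and without overlapping or long genes. Differences between replicates correlated little between groups (r -0.06 to 0.11), so libraries were not paired by replicate number in the main fit. This cannot show whether libraries of the same number came from the same mice. No 2 libraries of a group agreed within sampling noise (chi-square per degree of freedom 5.11 to 9.99). Gene models came from GENCODE M1 on NCBIM37 (mm9), where 64 of 64 genes were found and 62 with the same coordinates.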

Additional observations from a re-analysis of the deposited data

Results flagged for a closer look

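The KO change differed between the stages, by the test of the difference in edgeR (post-meiotic minus meiotic log2), in 5 histone genes: Hist3h2a (0.73), Hist2h2be (0.55), Hist1h2bp (-0.53), Hist4h4 (-0.56) and Hist1h2bj (-0.58). It also differed in the variants Hist1h1t (0.61) and Hist1h2aa (-0.66) and in H3f3b (0.72), the deleted gene, which was low in all 4 KO libraries. Among the genes of the lists it differed in Upf1 (0.49), Cdk2 (0.65), Hat1 (-0.47), Dek (-0.49) and the Leydig cell gene Hsd17b3 (1.20).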

How the results depend on the processing

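Of 2293 repeats of the 145 gene results over all alternatives, 2168 kept their direction and side of the threshold, 125 kept the direction and missed the threshold (106 of them with a library left out, 13 with DESeq2), and none turned. With a replicate block 5 genes instead of 3 had a stage difference below 0, the other counts staying within 1.5 times. That count was 5 with RLE factors, 6 with DESeq2 and 9 with no filter, and the count above 0 was 1 with RLE factors, with DESeq2 and without overlapping genes. Without overlapping genes 1 gene fell in KO meiotic cells. With a library left out 17 to 26 genes rose in KO post-meiotic cells, and 0 to 1 and 0 to 3 had a stage difference above and below 0. With library totals 7 genes rose beyond log2 1 in KO post-meiotic cells. The cause was not tested, other than that totals shift the median of all genes from 0.01 to -0.12 between WT stages and from 0.04 to 0.14 in KO post-meiotic cells.

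The log2 ratios of class sums moved by more than 1 SD with totals. Between WT stages they were -0.20 in H1, -1.09 in H2A, -2.14 in H2B, -0.90 in H3 and -1.30 in H4. Between KO stages they were -2.45 in H2B, -1.71 in H3 and -1.44 in H4. In KO meiotic cells they were 0.56 in H2A, 1.56 in H3 and 0.89 in H4, and in KO post-meiotic cells 0.42 in H2B, 0.75 in H3 and 0.74 in H4 (0.59 in H4 with RLE factors). Without overlapping genes they were -0.69 in H2A and -2.10 in H2B between WT stages, -2.45 in H2B between KO stages, and 0.73 in H2A and 1.55 in H3 in KO meiotic cells. Without genes over 2000 bases the last 2 were 0.38 and 1.54.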
